A study of Drosophila melanogaster with 18 samples.

Results

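The serpins and the extracellular proteases that lead to Toll activation and to melanization were followed across 18 single fly heads. The members were every gene whose symbol begins with Spn and a digit, together with nec, SPE, grass, psh, Hayan, spirit, modSP, MP1, PPO1, PPO2 and spz. Of the 38 genes that the annotation gives for this rule, 37 were among the 17559 genes of the table, and these comprised 27 Spn genes and 10 others. The identifier of PPO1 was not matched, so PPO1 is not analysed here.

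In insects, microbial molecules or microbial proteases in the hemolymph set off a chain of serine proteases, each of which cuts and activates the next. A terminal protease of the chain cuts Spätzle, the ligand of the Toll receptor, and Toll then turns on immune genes through NF-κB factors. Related proteases activate prophenoloxidases, the enzymes that start melanin formation at wounds and around parasites. Serpins are suicide inhibitors that trap such proteases and so hold both responses in check, and many of these secreted proteins come from the fat body and from hemocytes.

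Poly-A RNA of Drosophila melanogaster heads was sequenced from 3 groups of 6 flies, all starved. Sucrose flies were trained with an odor and sucrose, and sorbose flies with the odor and sorbose, a sugar that tastes sweet but has no food value for flies. Both were collected 4 h after training. Odor flies carry the label naive, received no sugar, and were described by the study as exposed to octanol alone. The study describes the heads as female, and the labels used here give neither strain nor age. Because no collection time is given for odor flies, sugar, training and hour of collection cannot be told apart in any difference from them, and whether flies of a group came from separate cultures is not stated either, so that p-values measure only the spread between these heads. In whole heads, fewer cells of a type and less RNA per cell cannot be told apart.

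The effective libraries held 45.8 to 77.2 M reads (M, 1000000), and between 10175 and 10317 genes had at least 1 RPKM (reads per kilobase of gene and M mapped reads) in a fly. The first principal component of the 11062 tested genes held 37.6% of the variance, with Odor 1, Odor 6, Odor 3 and Odor 2 on its positive side at 54.2, 50.5, 29.9 and 17.0. Odor 4 and Odor 5 lay at -5.17 and 0.03, near the sucrose flies (-27.4 to -0.45) and the sorbose flies (-11.0 to -4.81). Because of this, the differences from odor flies were also computed without Odor 1 and Odor 6, an alternative chosen after the data were seen, and the calls it ended are given. These heads were picked for lying farthest from the trained flies on this component. For genes that follow the component, the choice itself makes the differences smaller, so a lost call is not a separate test. Neuron and photoreceptor markers were present in all heads, and none of the 8 tested was called by limma in any comparison, or had an unadjusted p under 0.05. Over all genes, 27.5% were called for sucrose and 24.4% for sorbose against odor flies, and 0.00904% between the sugars. Such an unadjusted p was found for 39.2%, 37.3% and 9.96% of all genes in the same order.

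Levels of the members spanned more than 4 orders of magnitude in RPKM. Spn43Ab was the most abundant at 247 RPKM (mean of 18 flies), followed by the Spätzle-processing enzyme SPE at 116 and by nec, a serpin that restrains Toll activation, at 112. MP1, Spn88Eb, Spn88Ea, Spn27A, Spn42Dd and Spn77Ba followed with means between 53.9 and 30.5 RPKM. The place of Spn88Eb rests on 1 head: its mean is 47.0 RPKM, but 21.4 without Odor 1, and its median over 18 flies is 8.06. The upstream proteases modSP, grass and psh were at 28.8, 25.6 and 19.3 RPKM, the ligand gene spz at 13.5, and spirit, Hayan and PPO2 at 10.1, 9.72 and 9.59. Neighbours in this order often overlapped from fly to fly: SPE ranged from 31.7 to 204 RPKM and nec from 80.2 to 166. A mean of at least 0.5 RPKM was needed for testing, which 23 members passed and 14 did not, all of the latter Spn genes. The lowest member that passed was Spn42Dc at 1.94 RPKM, and the highest that did not was Spn85F at 0.426.

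**Figure D1:**
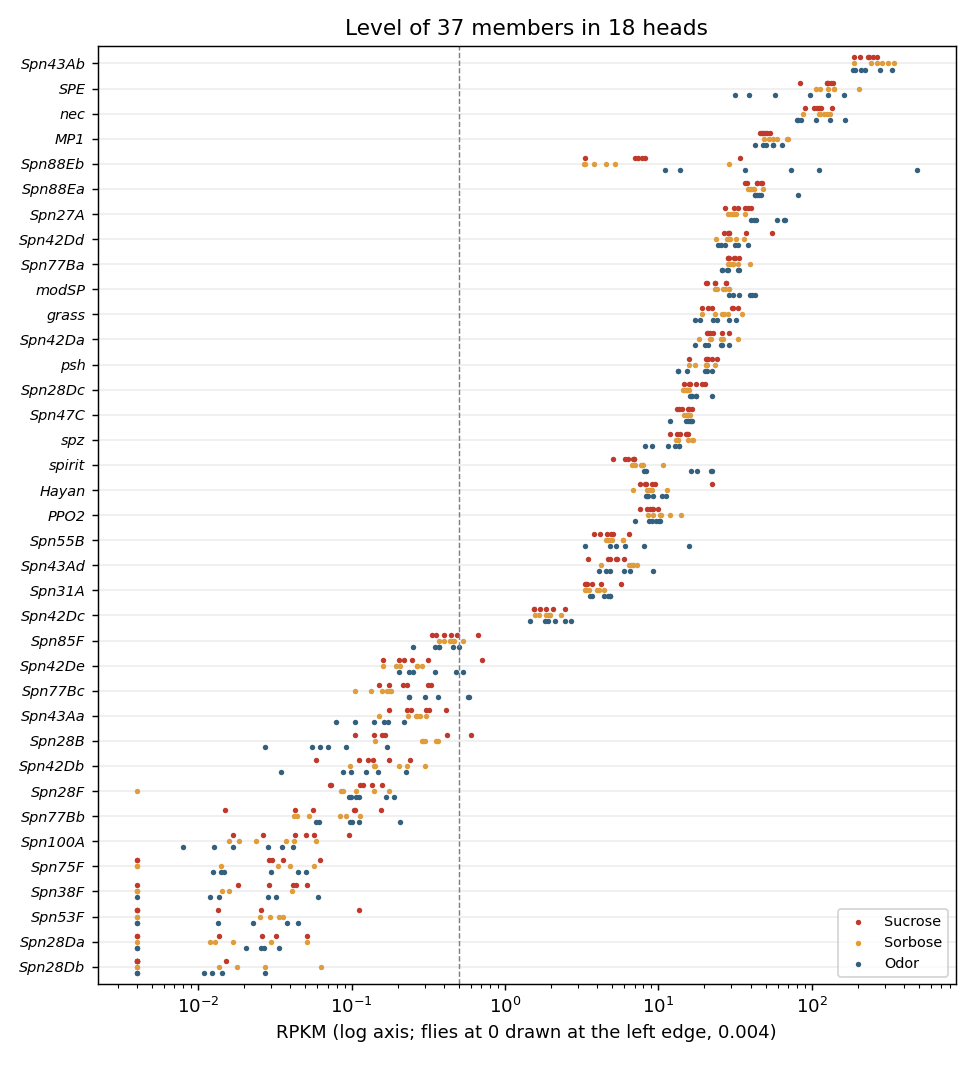
RPKM (log axis) of the 37 members, 1 point per head, coloured by group with sucrose above sorbose above odor in each row; the dashed line marks 0.5 RPKM and heads at 0 are drawn at the left edge. The 23 members right of the line were tested, and Spn88Eb shows the widest scatter, from 3.26 to 482 RPKM.

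Several members lie side by side in the dm6 genome. Spn42Da to Spn42De and the row Spn43Aa, Spn43Ab, Spn43Ad and nec are clusters on 2R, and 13 of the 37 members are on that arm. Spn88Ea and Spn88Eb are 255 bases apart on 3R, and Hayan and psh, related protease genes, are 714 bases apart on X. Not all neighbours shared their levels. Within the Spn42D cluster the means were 23.8 RPKM for Spn42Da and 31.3 for Spn42Dd, but 0.150 for Spn42Db and 0.294 for Spn42De.

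Reads from overlapping genes cannot be separated in these non-stranded libraries. All exonic bases of MP1 (1525 bases) lie within exons of Vps24 on the opposite strand, so the MP1 values are uncertain. For Hayan, 36.2% of the exonic bases are shared with the antisense gene asRNA:CR45714. The overlaps of SPE (8.45%, with CG18754 on the same strand), Spn42Da (10.5%, with asRNA:CR44169) and Spn77Ba (4.35%, with asRNA:CR43875) are smaller shares of bases. However, asRNA:CR44169 averaged 70.1 RPKM and asRNA:CR43875 251 RPKM, against 6.19 for CG18754. The values of Spn42Da and Spn77Ba are therefore uncertain too. Spn42Db shares 25.6% of its exonic bases with asRNA:CR44169. No exonic overlap was found for modSP, spirit or Spn27A, nor for Spn88Eb.

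Compared with odor flies, sucrose flies had lower RNA of 4 members, namely modSP, spirit, Spn27A and Spn88Eb, and no member was higher at an adjusted p under 0.05 (limma on log2(RPKM + 0.5), Benjamini-Hochberg adjustment over all genes tested). These are 17.4% of the 23 tested members, against 27.5% of all 11062 tested genes, of which 14.4% were lower and 13.1% higher. In sorbose flies the same 4 genes were lower and spz was higher, which is 21.7% of members against 24.4% of all genes (12.2% lower and 12.2% higher). At an unadjusted p under 0.05 the counts were 6 members for sucrose (39.2% of all genes) and 7 for sorbose (37.3% of all genes). The share of members called was near that of all genes for sorbose and was on either side of it in other settings: 30.4% of members against 22.5% of all genes with quantile normalization, 39.1% against 32.2% with array quality weights, and 4.35% against 8.29% without Odor 1 and Odor 6. The median difference over the tested members was -0.04 on the log2 scale in sucrose flies and 0.02 in sorbose flies, beside -0.001 and 0.007 over all genes. Both comparisons use the same 6 odor flies.

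The chain begins with modSP, a modular protease that acts downstream of pattern recognition receptors (FBgn0051217, 3R:16652446-16655662, minus strand). Sucrose flies had 20.6, 23.5 and 27.8 RPKM as lowest, median and highest value, and sorbose flies 23.4, 26.8 and 28.8, against 28.9, 36.6 and 42.4 RPKM in odor flies. No trained fly reached the lowest odor fly, a separation that 9.45% of all genes showed for sucrose and 7.17% for sorbose, in either direction. The mean was 24.0 ± 3.16 RPKM in sucrose flies, 26.4 ± 2.30 in sorbose flies and 36.0 ± 5.76 in odor flies (SD, n = 6 each). The log2 difference from odor flies was -0.57 ± 0.10 (SE, limma adjusted p = 0.00114) for sucrose and -0.43 ± 0.10 (adjusted p = 0.00843) for sorbose. Without Odor 1 and Odor 6 it was -0.46 (adjusted p = 0.00995) for sucrose and -0.32 (adjusted p = 0.0702) for sorbose, so that the sorbose call was lost.

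spirit, a clip-domain protease placed upstream of SPE (FBgn0030051, X:8571099-8573593, minus strand), showed the larger fall of the called proteases. Its lowest, median and highest values were 5.10, 6.63 and 6.96 RPKM in sucrose flies and 6.72, 7.77 and 10.7 in sorbose flies, against 8.01, 17.1 and 22.5 RPKM in odor flies. The odor flies were split: Odor 4 and Odor 5 had 8.01 and 8.30 RPKM, and the other 4 had at least 16.3. All sucrose flies lay below every odor fly, whereas Sorbose 3, at 10.7 RPKM, overlapped with them. The log2 difference was -1.14 ± 0.22 (limma adjusted p = 0.00169) for sucrose and -0.85 ± 0.22 (adjusted p = 0.0121) for sorbose. It was -0.85 (adjusted p = 0.0121) for sucrose and -0.55 (adjusted p = 0.0953, no longer called) for sorbose without Odor 1 and Odor 6.

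SPE, which cuts Spätzle (FBgn0039102, 3R:23686255-23688147, plus strand), ran the other way in the means but did not pass the test. Sucrose flies had 83.5, 127 and 137 RPKM as lowest, median and highest, and sorbose flies 106, 133 and 204, against 31.7, 77.7 and 162 in odor flies. Odor 1, Odor 6 and Odor 3 held the lowest values of the series at 31.7, 39.3 and 57.6 RPKM, while Odor 5, at 162, was above every sucrose fly. The log2 difference was 0.73 ± 0.33 (limma adjusted p = 0.106) for sucrose and 0.89 ± 0.33 (adjusted p = 0.0550) for sorbose. It was called when Odor 5 was left out, at 0.96 (adjusted p = 0.0213) for sucrose and 1.12 (adjusted p = 0.0105) for sorbose, and likewise without Odor 4, at 0.89 (adjusted p = 0.0457) and 1.05 (adjusted p = 0.0237). Array quality weights also gave a call for sucrose (adjusted p = 0.0215) and sorbose (adjusted p = 0.00737), and quantile normalization for sorbose (adjusted p = 0.0297). Without Odor 1 and Odor 6 the differences were 0.21 (adjusted p = 0.642) and 0.37 (adjusted p = 0.362).

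spz, the gene for the ligand Spätzle itself (FBgn0003495, 3R:27064990-27070070, minus strand), was higher in sorbose flies by 0.37 ± 0.12 on the log2 scale (limma adjusted p = 0.0306). In sucrose flies the difference was 0.32 ± 0.12 and missed the threshold (adjusted p = 0.0535). The lowest, median and highest values were 12.0, 14.5 and 15.6 RPKM in sucrose flies and 13.01, 14.5 and 16.8 in sorbose flies, against 8.15, 12.2 and 13.6 in odor flies, so the groups overlapped. The lowest values belonged to Odor 1 (8.15) and Odor 6 (9.16). The sorbose call was lost when Sorbose 1, 3 or 6 or Odor 1 or 6 was left out, with adjusted p between 0.0569 and 0.0803, or when only the groups compared were fitted (adjusted p = 0.0663), and the difference was 0.19 (adjusted p = 0.204) without Odor 1 and Odor 6 together. The sucrose difference was called without Sucrose 6 (adjusted p = 0.0362), Odor 4 (0.0277) or Odor 5 (0.0274), and with median-of-ratios scaling (0.0493), a minimum mean of 5 RPKM (0.0493) or array quality weights (0.0471).

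**Figure D2:**
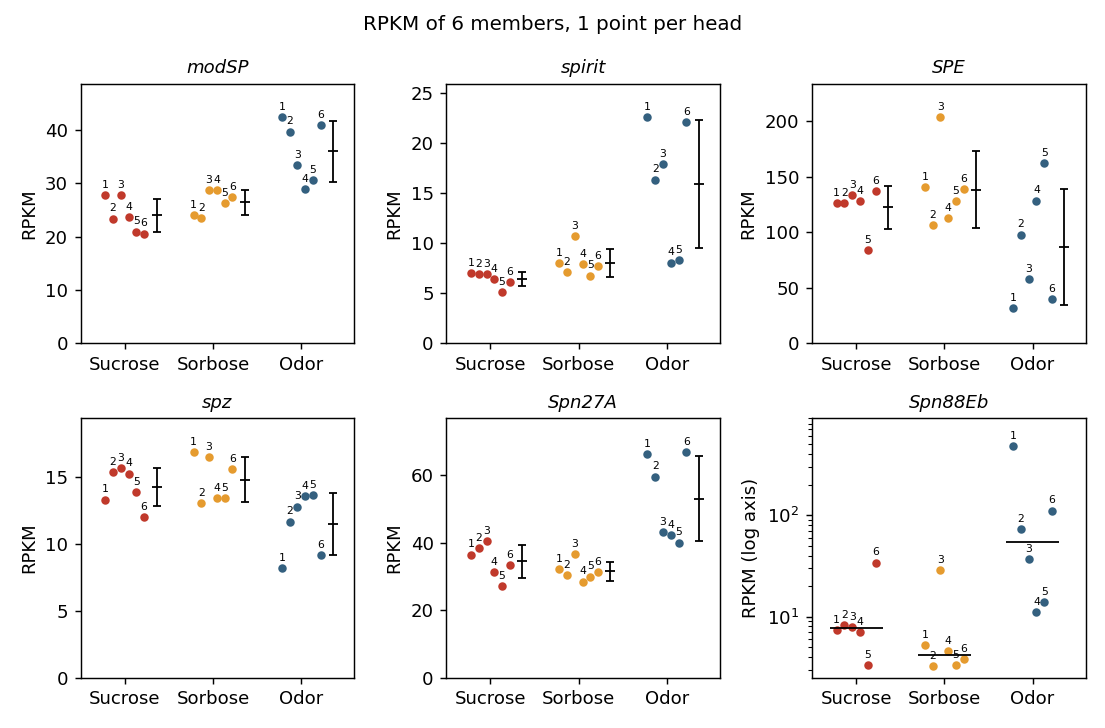
RPKM of modSP, spirit, SPE, spz, Spn27A and Spn88Eb in each head, labelled with its replicate number, for sucrose, sorbose and odor flies from left to right; bars show mean ± SD, and in the log-axis panel of Spn88Eb a line shows the median. Odor 1 and Odor 6 are the highest odor heads for Spn27A and the lowest for spz and SPE, and for spirit Odor 4 and Odor 5 lie at 8.01 and 8.30, close to the trained flies.

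The remaining proteases of the chain were not called in any of the comparisons in the main setting, or without Odor 1 and Odor 6. With array quality weights, psh was called for sucrose against odor flies (0.32, limma adjusted p = 0.0399). psh, which is cut by microbial proteases and so senses them, averaged 20.7 ± 2.70 RPKM in sucrose flies, 19.7 ± 2.68 in sorbose flies and 17.6 ± 3.97 in odor flies, with log2 differences from odor of 0.25 (limma adjusted p = 0.180) and 0.18 (adjusted p = 0.357). grass, a clip-domain protease between modSP and SPE, averaged 26.1 ± 5.86, 26.6 ± 5.33 and 24.0 ± 5.75 RPKM in the same order of groups, with differences of 0.12 (adjusted p = 0.656) and 0.15 (adjusted p = 0.566). Without Odor 1 and Odor 6 the differences of psh were 0.08 and 0.01, and those of grass were -0.07 and -0.03. Hayan, which acts in melanization and in Toll activation, had a median of 8.69 RPKM in sucrose flies and 8.87 in sorbose flies, against 8.89 in odor flies. Sucrose 6 stood apart with 22.4 RPKM of Hayan where the other sucrose flies had 7.58 to 9.56. The neighbouring psh did not share this, with 15.9 RPKM in Sucrose 6 being the lowest of the sucrose flies.

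PPO2 and MP1, which act in melanization, were not called in any comparison in the main setting. With array quality weights, MP1 was called for sorbose against odor flies (0.27, limma adjusted p = 0.0349). Both genes had an unadjusted p under 0.05 between sucrose and sorbose flies, as given below. PPO2, a prophenoloxidase stored in crystal cells, averaged 8.88 ± 0.82 RPKM in sucrose flies, 10.8 ± 2.00 in sorbose flies and 9.15 ± 1.16 in odor flies, with log2 differences from odor of -0.04 (limma adjusted p = 0.846) and 0.21 (adjusted p = 0.155). MP1, a protease that promotes prophenoloxidase activation, averaged 49.2 ± 2.80, 59.4 ± 8.80 and 53.0 ± 7.55 RPKM in the same order, with differences of -0.09 (adjusted p = 0.516) and 0.16 (adjusted p = 0.243), all within the limit set by its overlap with Vps24.

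Among the serpins, Spn27A and Spn88Eb were lower in both trained groups. Spn27A, the inhibitor of prophenoloxidase activation (FBgn0028990, 2L:6671065-6673347, minus strand), had 27.2, 34.9 and 40.4 RPKM as lowest, median and highest in sucrose flies and 28.5, 30.8 and 36.7 in sorbose flies, against 40.02, 51.4 and 66.8 in odor flies. Sorbose flies did not overlap with odor flies, and sucrose flies overlapped only through Sucrose 3 (40.4 RPKM) and Odor 5 (40.02 RPKM). The log2 difference was -0.59 ± 0.13 (limma adjusted p = 0.00428) for sucrose and -0.71 ± 0.13 (adjusted p = 0.00289) for sorbose. Spn27A was the only member that was called in both comparisons without Odor 1 and Odor 6, at -0.41 (adjusted p = 0.0309) for sucrose and -0.53 (adjusted p = 0.0189) for sorbose. In that setting 14.7% of all genes were called for sucrose and 8.29% for sorbose, and the members called were 3 and 1.

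Spn88Eb (FBgn0038299, 3R:15206703-15208762, minus strand) was the most variable member. It had 3.33, 7.63 and 34.1 RPKM as lowest, median and highest in sucrose flies and 3.26, 4.18 and 29.0 in sorbose flies, against 11.1, 55.0 and 482 in odor flies. Odor 1 alone had 482 RPKM, 59.8 times the median of all 18 flies, followed by Odor 6 at 111 and Odor 2 at 73.3. Single trained heads were high as well, namely Sucrose 6 at 34.1 and Sorbose 3 at 29.0, where the other trained flies had at most 8.25. These values rest on 274 to 40296 reads per head. The log2 difference was -2.56 ± 0.79 (limma adjusted p = 0.0241) for sucrose and -3.14 ± 0.79 (adjusted p = 0.0103) for sorbose. The sucrose call was lost without Odor 1 (-1.93, adjusted p = 0.0533), Odor 6 (-2.35, adjusted p = 0.0586) or Sucrose 5 (-2.31, adjusted p = 0.0545), and without Odor 1 and Odor 6 together the differences were -1.51 (adjusted p = 0.154) and -2.09 (adjusted p = 0.0662).

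Its neighbour Spn88Ea, a serpin that limits Toll activation, was steady outside Odor 1. It ranged from 36.5 to 47.7 RPKM in sucrose flies and from 38.7 to 47.9 in sorbose flies, and was 81.4 RPKM in Odor 1 against 42.5 to 46.5 in the other odor flies. The differences of -0.20 (limma adjusted p = 0.274) for sucrose and -0.23 (adjusted p = 0.201) for sorbose did not pass the test. Spn55B, whose mean was 5.74 RPKM, had its highest value in the same head, 15.8 RPKM in Odor 1.

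Spn28Dc, Spn77Ba and nec, which also restrain melanization or Toll, showed smaller differences than Spn27A. Spn28Dc, which limits melanization, was lower in every sorbose fly (14.5 to 15.9 RPKM) than in every odor fly (16.0 to 22.4 RPKM), while sucrose flies ranged from 14.7 to 20.1. Its log2 difference for sorbose was -0.22 ± 0.08 and narrowly missed the threshold (limma adjusted p = 0.0575), and for sucrose it was -0.04 (adjusted p = 0.761). The sorbose difference was called in 6 of 30 alternatives, with adjusted p between 0.0245 and 0.0475. Spn77Ba, which holds back melanization in the airways, averaged 30.3 ± 1.99 RPKM in sucrose flies, 32.0 ± 4.07 in sorbose flies and 29.2 ± 3.33 in odor flies. nec averaged 111 ± 14.9 RPKM in sucrose flies and 115.2 ± 15.5 in sorbose flies, against 109 ± 34.6 in odor flies, with differences of 0.08 (adjusted p = 0.765) and 0.13 (adjusted p = 0.608), and of -0.10 and -0.05 without Odor 1 and Odor 6.

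The other abundant serpins were not called in the main setting either. With array quality weights, Spn43Ab was called for sorbose against odor flies (0.37, limma adjusted p = 0.046). Spn43Ab averaged 230 ± 27.8 RPKM in sucrose flies, 274 ± 55.6 in sorbose flies and 237 ± 57.0 in odor flies. Spn42Dd had medians of 28.9, 28.9 and 29.4 RPKM in the same order, with a highest value of 55.3 RPKM in Sucrose 6. Spn42Da, an inhibitor of the processing protease furin, had medians of 22.3, 23.9 and 23.3 RPKM. Spn47C ranged from 13.2 to 16.6 RPKM in sucrose flies, from 14.7 to 16.2 in sorbose flies and from 12.0 to 16.7 in odor flies. Spn31A, Spn43Ad, Spn55B and Spn42Dc, all with means below 6 RPKM, were also not called.

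**Figure D3:**
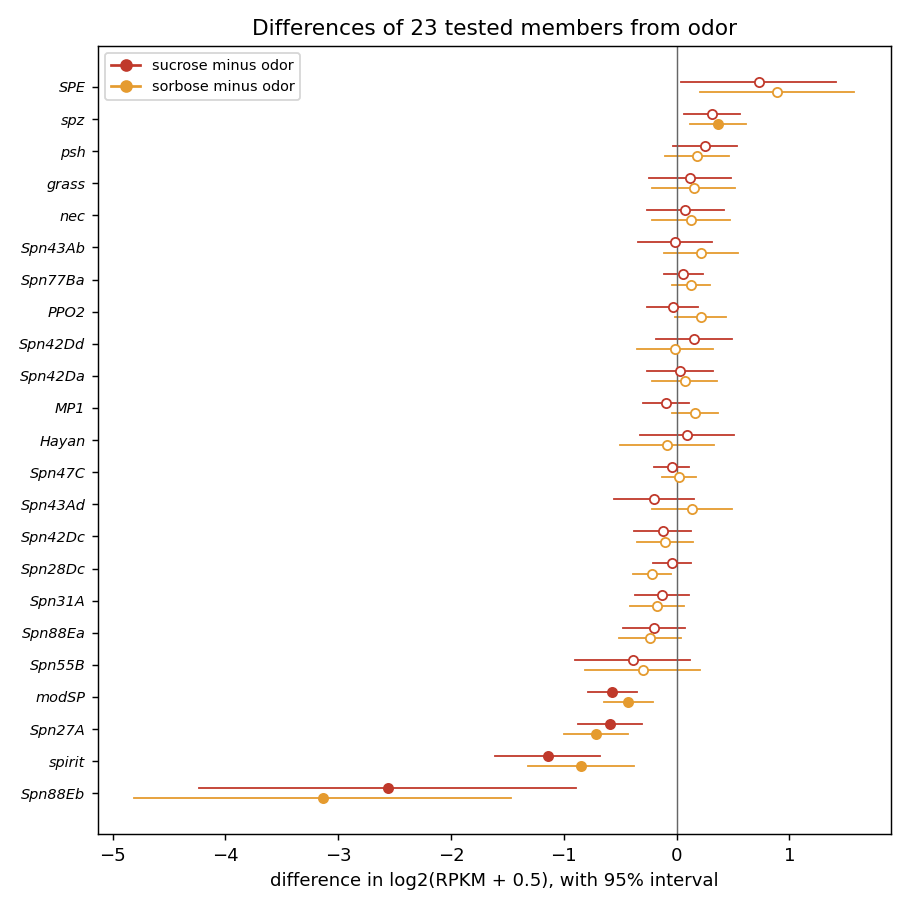
Difference in log2(RPKM + 0.5) of the 23 tested members with its 95% confidence interval, for sucrose minus odor and sorbose minus odor; filled points passed an adjusted p under 0.05. Spn88Eb, spirit, Spn27A and modSP are filled on the negative side for both sugars, spz only for sorbose, and the widest intervals are those of Spn88Eb.

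Within the odor group, some members had their extremes in the same heads. Odor 1, Odor 3 and Odor 6 had the lowest RPKM of the group for SPE (31.7, 57.6 and 39.3), psh (13.3, 15.3 and 13.5) and nec (80.2, 84.8 and 81.7). Odor 1 and Odor 6 had the highest for modSP (42.4 and 40.9), spirit (22.5 and 22.05), Spn27A (66.3 and 66.8) and Spn88Eb (482 and 111). Odor 5 was the highest odor fly for SPE (162), nec (166) and psh (22.3). Other members did not follow this order: PPO2 was lowest in Odor 2 (7.09) and MP1 in Odor 3 (42.6), and Hayan was highest in Odor 5 (11.2). These members were picked after their values were seen, and their relation across heads was not tested. The median SD of log2(RPKM + 0.5) over the 23 tested members was 0.19 in sucrose flies and 0.20 in sorbose flies, against 0.30 in odor flies, beside 0.12, 0.12 and 0.15 over all genes tested. The SD of Spn88Eb was 1.04 in sucrose flies and 1.14 in sorbose flies, against 2.01 in odor flies.

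**Figure D4:**
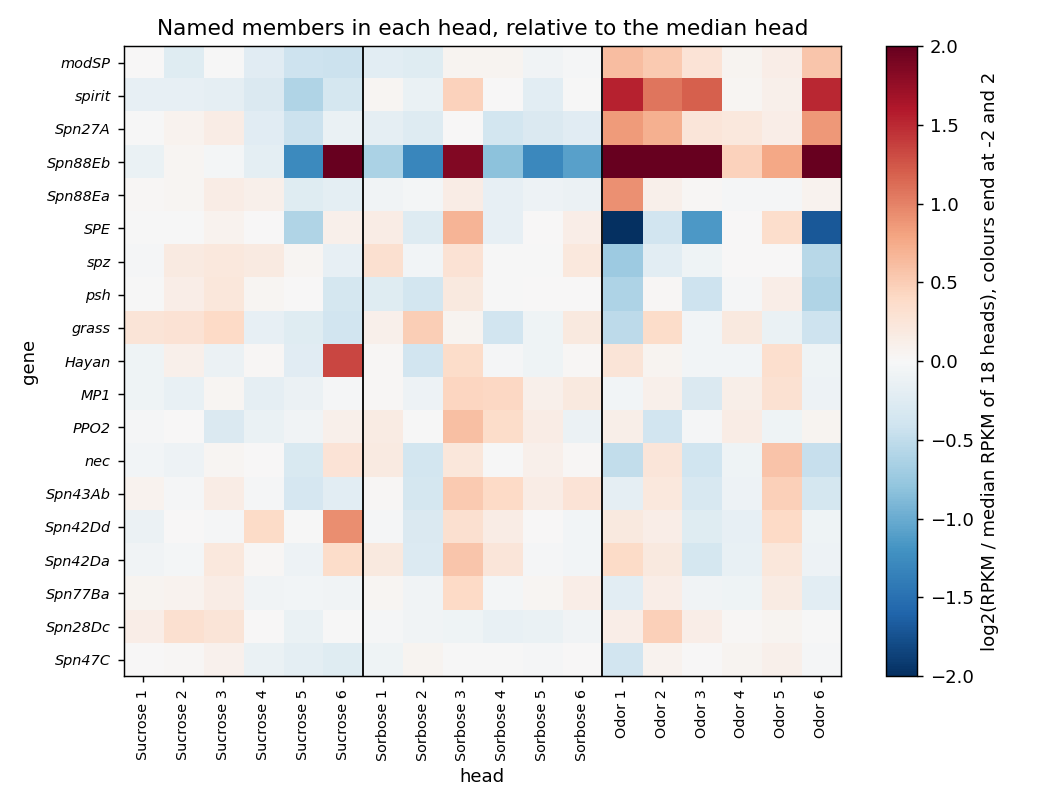
log2 ratio of RPKM to the median of 18 heads for the named members (rows) in each head (columns, sucrose, sorbose and odor from left to right); colours end at -2 and 2. Odor 1 and Odor 6 are high for modSP, spirit, Spn27A and Spn88Eb and low for SPE, and Sucrose 6 stands out for Hayan.

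Some markers of other cell types differed between these groups, beside the 27.5% and 24.4% of all genes called. Of 6 fat body markers 4 were matched, and their summed RPKM was 172 to 935 in sucrose flies and 68.1 to 274 in sorbose flies, against 12.3 to 236 in odor flies. Odor 6, Odor 3 and Odor 1 had the lowest sums at 12.3, 13.9 and 16.1, and Odor 4 the highest of its group at 236. Of the 2 that could be tested, apolpp, the lipophorin gene, was higher by 3.35 on the log2 scale in sucrose flies (limma adjusted p = 0.000763) and by 2.48 in sorbose flies (adjusted p = 0.00692), and Lsp2 was not called. Without Odor 1 and Odor 6, apolpp was called for sucrose (2.65, adjusted p = 0.00580) and not for sorbose (1.77, adjusted p = 0.0543). Fbp1 and Fbp2 were near 0, with at most 0.323 RPKM. The 6 plasmatocyte markers summed to 49.9 to 69.6 RPKM in sucrose flies and 50.1 to 78.3 in sorbose flies, against 36.0 to 54.5 in odor flies, with Hml and Pxn higher, NimC1 lower and eater, He and srp not called in both trained groups. Of the 4 glia markers, repo and Eaat1 were higher and moody lower in sucrose flies, moody alone was lower in sorbose flies, and Gs2 was not called. Of the 3 muscle markers, Act88F was higher in both trained groups, and Mhc and Mlc2 were not called. lz, a crystal cell factor, was higher by 0.30 (adjusted p = 0.0157) and 0.25 (adjusted p = 0.0396). Without Odor 1 and Odor 6, the calls that held among these plasmatocyte, glia, muscle and crystal cell markers were NimC1 for sucrose (adjusted p = 0.0463) and Hml for sorbose (adjusted p = 0.0490). In that setting the calls over all genes were 14.7% for sucrose and 8.29% for sorbose. The part of these cell types in the differences of the members was not tested.

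Sucrose and sorbose flies were not told apart by any member. No member was called between them by limma, in the main setting or in any alternative, at a background of 1 gene called (0.00904% of all genes), and in no tested member were the groups apart without overlap (1.18% of all genes), while 3 members had an unadjusted p under 0.05, as had 9.96% of all genes. These 3 were MP1, with a log2 difference of sucrose minus sorbose of -0.26 (95% confidence interval -0.46 to -0.05, adjusted p = 0.343), PPO2 with -0.25 (-0.47 to -0.02, adjusted p = 0.427) and Spn28Dc with 0.18 (0.01 to 0.35, adjusted p = 0.457). For the members called against odor flies the intervals were -0.36 to 0.07 for modSP, -0.76 to 0.17 for spirit, -0.16 to 0.40 for Spn27A, -0.30 to 0.19 for spz and -1.09 to 2.25 for Spn88Eb. The last interval is wide. For SPE it was -0.85 to 0.52.

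The 14 low members except Spn28Db were examined on the reads recovered from the RPKM values, by voom over the 13860 genes with at least 18 reads, a setting chosen after their values were seen. Spn28Db was not among these genes and was not tested by voom. In this setting Spn43Aa and Spn28B were higher in both trained groups, and Spn77Bc was lower in sorbose flies. The background of calls in this setting was 20.2% of genes for sucrose, 18% for sorbose and 0.0144% between the sugars, where none of the low members tested was called. Spn77Bc had 0.105 to 0.180 RPKM in sorbose flies and 0.238 to 0.584 in odor flies, without overlap, at a log2 difference of -1.19 ± 0.28 (limma-voom adjusted p = 0.00942), and sucrose flies lay between them at 0.152 to 0.328 (adjusted p = 0.0968). Spn28B had 0.106 to 0.604 RPKM in sucrose flies and 0.143 to 0.364 in sorbose flies, against 0.0273 to 0.170 in odor flies, with differences of 1.56 ± 0.48 (adjusted p = 0.0276) and 1.91 ± 0.46 (adjusted p = 0.010). Spn43Aa had 0.174 to 0.416 RPKM in sucrose flies and 0.151 to 0.306 in sorbose flies, against 0.0788 to 0.221 in odor flies, with differences of 0.94 ± 0.26 (adjusted p = 0.0167) and 0.79 ± 0.26 (adjusted p = 0.0459). In the limma fit without a filter, Spn28B for sucrose (adjusted p = 0.0573) and Spn43Aa for sorbose (adjusted p = 0.0537) were not called. Without Odor 1 and Odor 6, where voom called 10.5% of genes for sucrose and 5.22% for sorbose, the call that held was Spn77Bc for sorbose (-0.84, adjusted p = 0.0472), while Spn43Aa had adjusted p = 0.0516 and 0.123 and Spn28B 0.127 and 0.0706 for sucrose and sorbose. These 3 genes rest on 2 to 65 reads per head. Another 6 Spn genes were listed at 0 in at least 1 head, where a count of 0 allows up to 3 reads, or between 0.0304 and 0.0571 RPKM, counting error only.

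Genes on either side of the cascade were taken from lists chosen with earlier results known. Among 4 recognition proteins, PGRP-SD was higher in both trained groups, at 28.2 to 271 RPKM in sucrose flies and 19.0 to 138 in sorbose flies, against 4.91 to 27.9 in odor flies, by 2.72 ± 0.59 (limma adjusted p = 0.00344) and 1.91 ± 0.59 (adjusted p = 0.0274) on the log2 scale. It was called without Odor 1 and Odor 6 for sucrose (2.38, adjusted p = 0.0281) and not for sorbose (1.57, adjusted p = 0.156). PGRP-SA, GNBP1 and GNBP3 were not called. Of 8 further proteases 7 were matched and 2 could be tested. Sp7, a melanization protease, was lower in both trained groups without overlap, at 36.2 to 48.2 RPKM in sucrose flies and 35.1 to 47.3 in sorbose flies, against 53.3 to 113 in odor flies (-0.94 ± 0.15, adjusted p = 0.000642, and -1.06 ± 0.15, adjusted p = 0.00117), and remained so without Odor 1 and Odor 6 (-0.81, adjusted p = 0.00543, and -0.93, adjusted p = 0.00856). ea, which cuts Spätzle in the embryo, was higher by 0.29 (adjusted p = 0.0485) and 0.32 (adjusted p = 0.0347), and both calls were lost without Odor 1 and Odor 6 (adjusted p = 0.327 and 0.246).

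Downstream of Spätzle, 5 of 9 genes for the receptor Toll and its intracellular pathway were lower in each trained group and none was higher, beside 14.4% and 12.2% of all genes that were lower. Most of these calls were lost without Odor 1 and Odor 6, where limma called 0 of the 9 for sucrose (2 had an unadjusted p under 0.05). For sorbose limma called 1, Tl (-0.21, adjusted p = 0.0323), and 4 had an unadjusted p under 0.05. In that setting the sucrose differences of Tl and cact were -0.16 ± 0.05 and -0.17 ± 0.10 on the log2 scale. Why these calls were lost was not tested. Calls over all genes fell as well. They fell from 27.5% to 14.7% for sucrose and from 24.4% to 8.29% for sorbose. The summed RPKM of the 9 genes was 151 to 166 in sucrose flies and 147 to 161 in sorbose flies, against 156 and 158 in Odor 4 and Odor 5 and 178 to 214 in the other odor flies. Tl, the receptor gene, was lower by 0.22 and 0.26 in sucrose and sorbose flies on the log2 scale (adjusted p = 0.00823 and 0.00416), and cact, the IκB-type inhibitor that is itself a target of Toll signalling, fell by 0.41 (adjusted p = 0.0434) and by 0.51 (adjusted p = 0.0191). Myd88 and Pli were lower in both as well, tub only passed the test for sucrose and Dif only for sorbose, and that difference between the sugars was not called for either. None of the 12 Bomanins, short peptides induced by Toll, was called by limma in either comparison with odor flies, and 2 had an unadjusted p under 0.05 for sucrose and 0 for sorbose, where 27.5% and 24.4% of all genes were called and 39.2% and 37.3% had such an unadjusted p. Their summed RPKM had medians of 2736 in sucrose flies and 2882 in sorbose flies, against 3289 in odor flies, with the highest heads at 7303 (Sucrose 6) and 8266 (Odor 5). Of 3 tested relatives of spz and 4 tested enzymes of melanin synthesis none was called by limma, and at an unadjusted p under 0.05 there were 0 and 1 for sucrose and 0 and 2 for sorbose.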

How the data were processed

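Per the labels, the poly-A libraries do not keep strand. Per the submitters' processing notes the tools were CASAVA 1.8.2, TopHat2 2.0.13 and edgeR 3.18.1 with the genome build dm6; another passage of the study's methods names an older aligner and build. The authors deposited RPKM for 17559 genes in 18 flies, and all columns were used (0 left out). Symbols came from the Ensembl annotation of dm6 for 17253 identifiers, and 306 were not annotated. The RPKM steps gave whole reads (within 0.02 read) for 98.26% of values and 16853 genes in all flies, from which effective library sizes of 45.8 to 77.2 M reads (M, 1000000) were taken. These sizes can include scaling by the authors.

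Values were tested as log2(RPKM + 0.5), which understates differences of low genes, for genes with a mean of at least 0.5 RPKM (11062), in 1 limma 3.58.1 fit (R 4.3.3) over the 3 groups with a mean-variance trend. P-values were adjusted by Benjamini-Hochberg in each comparison and called under 0.05. The fit was tested on simulated data. Named are the members outside the Spn series, and Spn genes that were called, had a mean of at least 10 RPKM, or had a fly at 4 or more times the median. Low members, Spn31A, Spn43Ad, Spn55B and Spn42Dc were named after their values were seen. The members and lists were chosen with earlier results of these data known. Replicate numbers only name flies. Alternatives were pseudocounts of 0.1 and 1, median-of-ratios and quantile scaling, no filter or a mean of at least 5 RPKM, only the groups compared, the replicate block, array quality weights, voom on recovered reads, a threshold of 0.01 and leaving out each fly.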

Additional observations from a re-analysis of the deposited data

Results flagged for a closer look

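Within groups of 6 flies, 7 of 57 cases had a head whose gap to the nearest other head was a large share of the group's range (Dixon's test at its 95% critical value), where chance gives about 2.85. That figure holds for independent cases that were not selected. Here the cases share heads, and Spn genes were named partly for being called or for a fly that stood apart, so it is only a guide. Values are log2(RPKM + 0.5). Hayan in Sucrose 6 was 4.51 (22.4 RPKM, other sucrose flies 7.58 to 9.56), and the overlapping antisense gene asRNA:CR45714 shares 36.2% of its exonic bases. SPE in Sucrose 5 was low at 6.39 (83.5 RPKM, other sucrose flies 126 to 137). In Sorbose 3, spirit was 3.48 (10.7 RPKM, other sorbose flies 6.72 to 7.97) and Spn88Eb was 4.88 (29.0 RPKM, other sorbose flies 3.26 to 5.22). In Odor 1, Spn88Ea was 6.36 (81.4 RPKM, other odor flies 42.5 to 46.5) and Spn47C was low at 3.64 (12.0 RPKM, other odor flies 15.3 to 16.7). Spn28Dc in Odor 2 was 4.51 (22.4 RPKM, other odor flies 16.0 to 17.7).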

How the results depend on the processing

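No member changed direction among those called, and modSP and spirit for sucrose and Spn27A for both sugars were called in all 30 alternatives. Members called for sucrose against odor numbered 4, and 7 with array quality weights; those for sorbose numbered 5, and 9 with array quality weights, 2 at an adjusted p under 0.01 and 1 without Odor 1 and Odor 6. Over all genes, 3041 were called for sucrose, but 1623 without Odor 1 and Odor 6 and 1492 at an adjusted p under 0.01, and 2702 for sorbose, but 917 and 1053. Between sucrose and sorbose 1 gene was called, and 19 with quantile normalization, 8 with only the groups compared, 308 with array quality weights and 2 with voom on reads. Leaving out each fly in turn gave 3 to 6 members for sucrose, 4 to 7 for sorbose and 0 to 0 between the sugars, and 2224 to 3488, 1771 to 3179 (1771 without Odor 6) and 1 to 49 genes (49 without Sorbose 2). Of the values of single members, 1008 kept their side of the threshold when a fly was left out, 10 gained a call and 8 lost it; for the other alternatives these were 659, 12 and 10. Most of the values that kept their side were of members not called in the main setting, which could not lose a call. The 8 calls lost when a fly was left out were those of spz for sorbose and Spn88Eb for sucrose. The causes were not tested.

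With the replicate number as a block, 4 members were called for sucrose, 6 for sorbose and 0 between the sugars; the added call was Spn28Dc for sorbose (-0.22, limma adjusted p = 0.0245). Flies of the same number did not deviate together (r = -0.34 to 0.24, -0.27 to 0.19 and -0.15 to 0.44 for sucrose with odor, sorbose with odor and sucrose with sorbose), and a fly correlated best with its own number in 0, 0 and 1 of 6 cases. The scalings moved the median of all genes by at most 0.02 on the log2 scale. Members below 0.5 RPKM are limited by their few reads.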
